A study of Homo sapiens with 48 samples.

Results

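CFPAC1 cells, an established human pancreatic ductal adenocarcinoma line, were treated with azacitidine (AZA, labelled 5 uM) or with the solvent DMSO, and their RNA was sequenced. The 6 libraries, 3 with AZA and 3 with DMSO, were taken by their labels from the 48 samples of the series and are described here over all genes, including those without RNA in DMSO. The study asks what the zinc finger protein ZNF274 does in pancreatic cancer lines. Besides AZA, its RNA-seq covers knockdown of ZNF274 (siZNF274) against a control siRNA (siCTRL) in CFPAC1 and ASPC1 cells, AZA against DMSO in ASPC1, another pancreatic cancer line, and overexpression in a further line. No ZNF274 construct or siRNA is labelled for the AZA and DMSO cells. The sources used here give no time of exposure to AZA. The design text calls the triplicates biological, but no label says that they came from separate cultures, so p-values measure the spread between these libraries.

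Azacitidine is a cytidine analogue that cells take up through nucleoside transporters and phosphorylate. Part of it is built into RNA, and part, after reduction, into DNA, where it traps DNA methyltransferases such as DNMT1, so that newly made DNA loses methylation at CG dinucleotides. Genes of the germ line, among them the cancer-testis antigens, are a class that body cells keep silent largely through CG methylation of their promoters. DNA methylation was not measured in these samples.

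The AZA libraries held 39594532 to 42231859 counts and the DMSO libraries 38531794 to 39903426. At least 1 count was found for 24004 to 24121 genes with AZA and for 23165 to 23534 with DMSO. The nuclear RNA MALAT1 took 0.506% to 0.617% of the counts with AZA and 0.334% to 0.473% with DMSO. Markers of duct epithelium were present in all 6 libraries, among them EPCAM, KRT19 and SOX9, and KRT8 stood at 3391 to 3562 counts per 1000000 (CPM, scaled by the trimmed mean of M-values) with AZA and at 3657 to 3796 CPM with DMSO. CFTR, the chloride channel of duct cells, was low, at 1.28, 1.12 and 1.45 CPM with AZA against 0.293, 0.436 and 0.371 CPM with DMSO.

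Genes with next to no reads in DMSO had reads in every AZA library, and the promoters of 4 of them are shown because CG dinucleotides are the sites at which the drug acts on methylation and these promoters differ in CG content. Each sequence runs from 250 bases before to 50 bases after the RefSeq start on GRCh38.p14, with every CG in capitals. TDRD1 lies at chr10:114179037-114179336 on the plus strand, DAZL at chr3:16605374-16605673 on the minus strand, SPANXB1 at chrX:141002344-141002643 on the plus strand and RGS1 at chr1:192575523-192575822 on the plus strand.
TDRD1: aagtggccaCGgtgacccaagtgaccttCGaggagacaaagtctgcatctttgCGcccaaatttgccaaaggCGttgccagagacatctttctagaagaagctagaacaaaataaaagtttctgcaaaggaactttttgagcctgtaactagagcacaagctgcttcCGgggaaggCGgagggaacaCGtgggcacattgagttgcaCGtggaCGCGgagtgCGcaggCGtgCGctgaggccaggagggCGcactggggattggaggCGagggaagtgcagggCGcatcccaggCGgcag
DAZL: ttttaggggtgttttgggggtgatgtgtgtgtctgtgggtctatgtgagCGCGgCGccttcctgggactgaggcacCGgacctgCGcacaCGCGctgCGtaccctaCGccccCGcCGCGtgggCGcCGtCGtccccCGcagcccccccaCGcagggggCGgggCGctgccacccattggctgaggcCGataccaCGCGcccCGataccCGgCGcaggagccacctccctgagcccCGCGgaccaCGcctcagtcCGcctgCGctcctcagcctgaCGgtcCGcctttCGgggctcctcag
SPANXB1: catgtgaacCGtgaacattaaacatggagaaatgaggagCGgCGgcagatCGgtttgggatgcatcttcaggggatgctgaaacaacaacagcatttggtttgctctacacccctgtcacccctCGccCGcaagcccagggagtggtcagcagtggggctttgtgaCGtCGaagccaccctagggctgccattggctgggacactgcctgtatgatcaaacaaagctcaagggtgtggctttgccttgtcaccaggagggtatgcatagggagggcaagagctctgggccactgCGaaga
RGS1: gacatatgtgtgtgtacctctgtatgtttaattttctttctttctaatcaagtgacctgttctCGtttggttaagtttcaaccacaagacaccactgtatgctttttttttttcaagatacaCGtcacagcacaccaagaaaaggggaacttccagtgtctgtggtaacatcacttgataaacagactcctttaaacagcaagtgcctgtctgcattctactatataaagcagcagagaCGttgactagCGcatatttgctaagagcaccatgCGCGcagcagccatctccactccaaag
These windows hold 17 CG in TDRD1, 33 in DAZL, 9 in SPANXB1 and 6 in RGS1. Of all promoters in the RefSeq table, 95.8% hold at least 1 CG, and the median over the tested protein-coding genes that have an entry was 26.

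Of these genes, SPANXB1, a cancer-testis antigen of the X chromosome, had 118, 159 and 157 counts with AZA and 1, 0 and 1 with DMSO. RGS1, which speeds the shut-off of G protein signals and is best known in lymphocytes, had 50, 58 and 58 counts with AZA and none in any DMSO library. TDRD1, a Tudor protein of the germline piRNA pathway, had 38, 42 and 32 counts with AZA and none with DMSO. In all 3 genes the AZA and DMSO libraries lay far apart, as follows from choosing genes nearly silent in DMSO with the most counts with AZA. DAZL, a germ cell RNA-binding protein, had 30, 45 and 31 counts with AZA and none with DMSO. Against a floor of 3 counts over the 3 DMSO libraries, the level with AZA was at least 52.6-fold higher for RGS1, at least 35.5-fold higher for TDRD1 and at least 33.6-fold higher for DAZL. For SPANXB1 the ratio was 206 with a 95% counting interval of 56.8 to 1708, which covers counting error only. SPANXB1 has near-identical copies on the X chromosome, so its reads may be shared with them. FAM9C, another testis gene of the X chromosome, had 63, 47 and 46 counts with AZA and 0, 0 and 1 with DMSO.

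**Figure D1:**
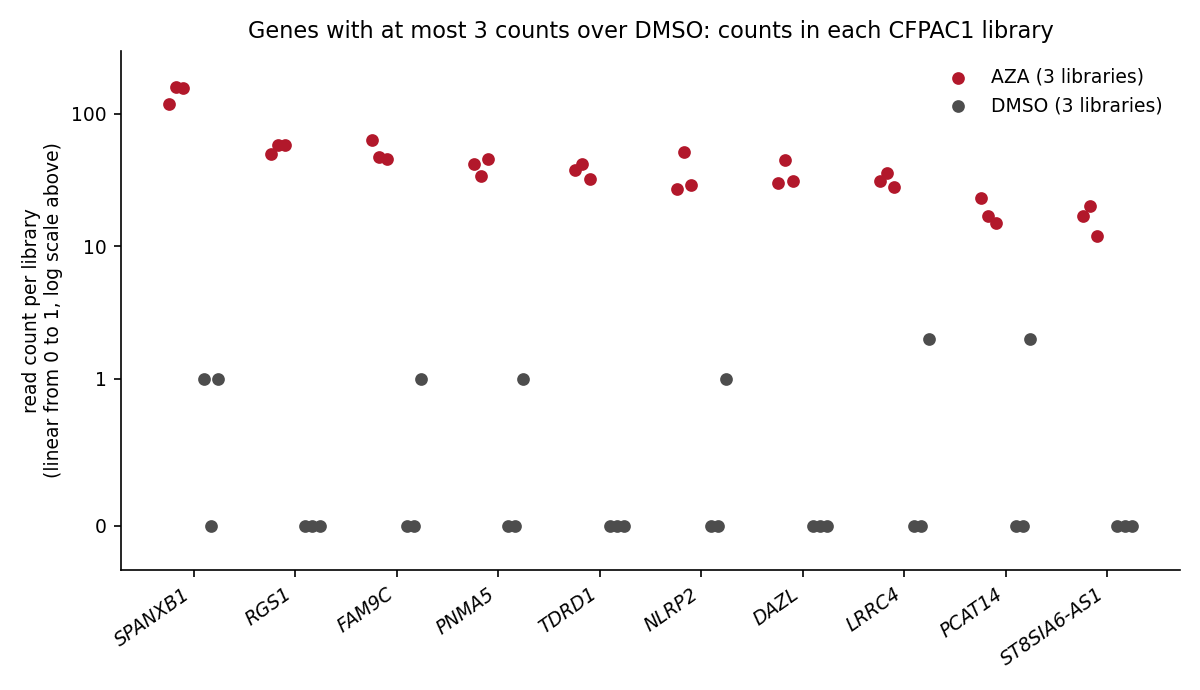
Read counts of the 8 protein-coding and 2 long non-coding genes that had at most 3 counts over the 3 DMSO libraries and the most counts with AZA, 1 point per library (vertical axis linear between 0 and 1 and logarithmic above). Each AZA library of every gene shown had at least 12 counts and each DMSO library at most 2.

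The 33 genes counted here had at most 3 counts over the 3 DMSO libraries and at least 10 in each AZA library. The mirror set, at most 3 counts over AZA and at least 10 in each DMSO library, was empty. The other 28 of these had 10 to 52 counts in each AZA library and come from many families. PNMA5 is a paraneoplastic antigen gene, NLRP2 an imprinted inflammasome gene expressed in oocytes, LRRC4 a brain adhesion gene, CTCFL the testis paralogue of CTCF, BRDT the testis bromodomain protein, and SSX3 a cancer-testis antigen. The long non-coding members include PCAT14 and ST8SIA6-AS1, for which sense and antisense reads could be told apart only if the counting used strand, which is not stated.

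The same was asked with silence defined in libraries outside the contrast. Of 14365 genes with at most 3 counts over the 3 siCTRL libraries of CFPAC1, 31 had at least 10 counts in each AZA library, against none in each DMSO library and none in each siZNF274 library. Of the 27 that passed the filter on low counts, 26 rose with AZA in the quasi-likelihood test of edgeR, with p-values adjusted by the Benjamini-Hochberg method. The count was 40 without DMSO replicate 1. It is no support by itself, because such genes passed the filter mostly through the group in which they were high.

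Over all 18103 genes tested, 2207 were higher (12.2%) and 2445 lower (13.5%) with AZA than with DMSO at an adjusted p under 0.05. Without AZA replicate 2 the genes called higher numbered 1462. Upper quartile scaling gave 2940 higher and 1914 lower, since it moved the median log2 fold change over all genes by 0.04, from 0.01 in the fit reported here. Large changes were mostly rises, with 379 genes at least 2-fold higher (2.09%) and 130 at least 2-fold lower (0.718%). The median log2 fold change was 0.41 among the genes that rose and -0.32 among those that fell. In bulk RNA, fewer cells of a kind and less RNA per cell cannot be told apart. Among protein-coding genes 14.3% rose and 15.8% fell, and among long non-coding RNAs 4.32% rose and 5.04% fell. Of 566 tested genes on the X chromosome, 21 rose at least 2-fold (3.71%). Some of them, such as SPANXB1, FAM9C and SSX3, passed the filter on counts through the AZA libraries, so this share is a description. Chromosomes 22 and 21 had shares of 3.15% and 2.86%. Genes over 100 CPM in the siCTRL libraries, which are not in the contrast, fell more often than they rose, with 821 of 2487 lower (33.0%) and 199 higher (8.0%). With upper quartile scaling the counts in that class were 642 lower (26%) and 319 higher (12.9%). Between 10 and 100 CPM, 1250 genes were lower (16.6%) and 1077 higher (14.3%).

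**Figure D2:**
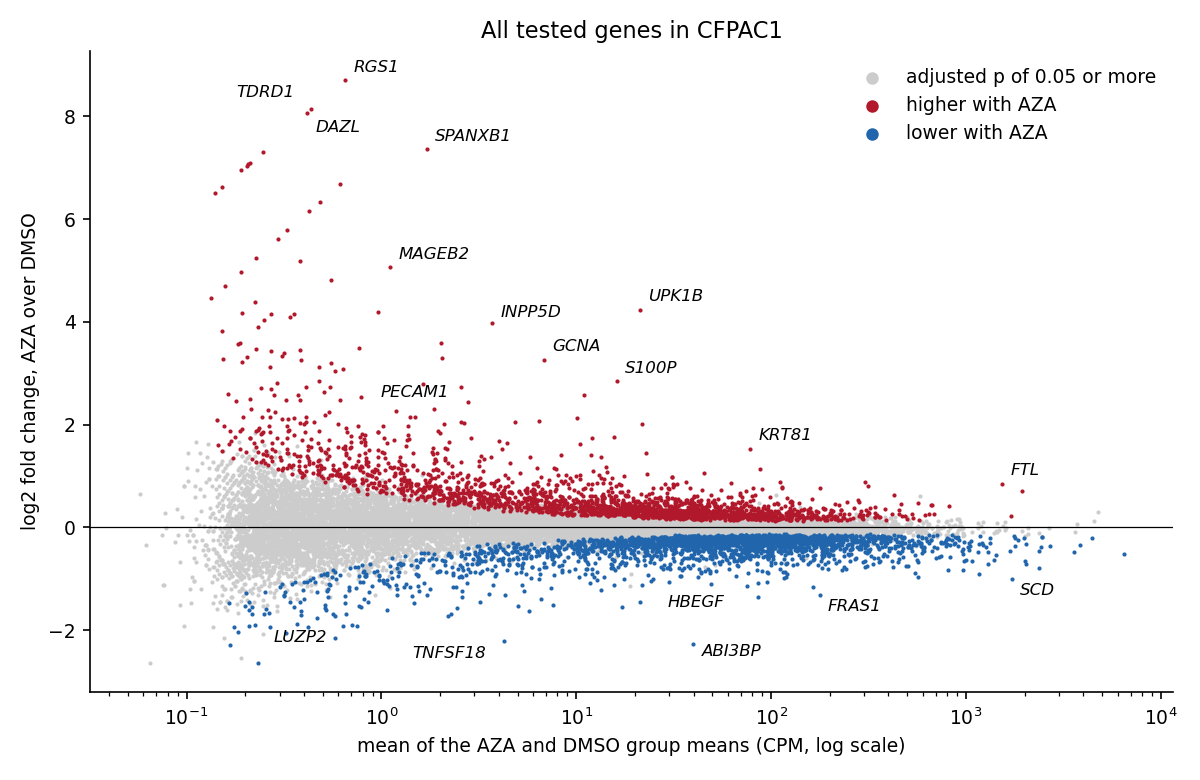
Log2 fold change of AZA over DMSO against the mean level in CPM (log scale) for every tested gene in CFPAC1. Coloured points are the genes that rose or fell at an adjusted p under 0.05, and the largest changes, such as RGS1, TDRD1, DAZL and SPANXB1, are rises at low levels.

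Many of the germline genes that could be tested rose. Of 78 X-linked cancer-testis genes looked up, 35 had no count in any of the 6 libraries and 9 passed the filter. Of these 9, 7 rose and none fell, which was also the count with DESeq2, and none was lower at an unadjusted p under 0.05. MAGEB2 had 1.49, 2.82 and 2.18 CPM with AZA against 0.0798, 0 and 0.106 CPM with DMSO. MAGEC2, SSX3, SSX1, MAGEA6 and MAGEA12 also rose, the last to 0.756, 1.05 and 0.873 CPM with AZA against 0.373, 0.128 and 0.398 CPM with DMSO. MAGEA and SSX genes have near-identical family members, so single values in these families are uncertain. The summed level of the list was 10.8 to 13 CPM with AZA and 1.3 to 1.4 CPM with DMSO. A filter on counts passes such genes mostly through the AZA libraries, so their share is given as a description.

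Of 68 autosomal germline genes, 32 were tested, 16 rose and 1, SYCE2, fell, with a median log2 fold change of 0.68, while 15 did not pass the test. Over all genes 12.2% rose. Some of the 16, such as TDRD1, DAZL and GTSF1, passed the filter on counts through the AZA libraries, so the share and the median are descriptions. MAEL, a piRNA pathway protein, had 1.51, 1.82 and 2.16 CPM with AZA and 0.106, 0.103 and 0.0795 CPM with DMSO, a fold of 18.4 (adjusted p = 1.46e-07, edgeR with Benjamini-Hochberg adjustment). PIWIL1, a piRNA-binding Argonaute protein, was already present in DMSO and rose to 24.7, 25.8 and 22.7 CPM with AZA, against 18.2, 16.5 and 16.4 CPM with DMSO. REC8, the meiotic cohesin subunit, rose 1.63-fold, and PRAME, a melanoma antigen, 2.31-fold. GCNA, a germ cell nuclear protein encoded on the X chromosome, had 13.1, 12.6 and 11.5 CPM with AZA against 1.06, 1.72 and 1.06 CPM with DMSO. The groups did not overlap in any of these 5 genes, which is no support. The naming rule by size required it of MAEL and GCNA, and the others were picked with their values in view. Over all tested genes it held for 21.5% in the direction of a rise.

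The DNA methyltransferase genes showed no called change. DNMT1, the maintenance methyltransferase, had 190, 190 and 191 CPM with AZA and 184, 183 and 185 CPM with DMSO (adjusted p = 0.564, edgeR with Benjamini-Hochberg adjustment). DNMT3A and DNMT3B, the de novo methyltransferases, and UHRF1, which brings DNMT1 to DNA, had adjusted p-values of 0.922, 0.67 and 0.267. These p-values do not show that the levels were equal. Of the 17 tested genes of the methylation machinery, 5 fell and 1 rose. The 3 TET genes, whose enzymes oxidise methylcytosine, all fell, TET1 1.48-fold, TET2 1.34-fold and TET3 1.26-fold. TET2 had 46.5, 47.1 and 47.5 CPM with AZA against 66.0, 66.2 and 57.6 CPM with DMSO. In the list of azacitidine uptake and metabolism, 3 of 20 fell (15%) and 3 rose (15%), near the 13.5% and 12.2% over all genes. CDA, the deaminase that inactivates the drug, fell 1.25-fold, the nucleoside transporter SLC29A2 fell 1.21-fold and the kinase UCK1 rose. The call of CDA was lost without AZA replicate 2 (adjusted p = 0.0718) or DMSO replicate 3 (0.0518), and that of SLC29A2 without DMSO replicate 2 (0.0504), in edgeR with Benjamini-Hochberg adjustment.

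ZNF274, the subject of the study, had 31.9, 30.8 and 32.7 CPM with AZA and 28.3, 28.1 and 29.0 CPM with DMSO, a fold of 1.12 (adjusted p = 0.0464, edgeR with Benjamini-Hochberg adjustment). That call was lost under 7 of the alternatives, among them the removal of any library other than DMSO replicate 3, with adjusted p-values of 0.0689 without AZA replicate 2 to 0.148 without AZA replicate 3. ZNF274 is known to silence through H3K9 methylation. In a list of 22 genes that write, read or remove that mark or act with it, 9 fell and 3 rose, ZNF274 itself among the latter. Those that fell include KDM4B and KDM4C, demethylases of H3K9, so the count gives no net direction for silencing. CBX1 and CBX5, the HP1 proteins that read the mark, fell 1.23-fold and 1.16-fold, while EHMT2, an H3K9 methyltransferase, rose 1.20-fold. The median log2 fold change of 44 of the 49 lists kept its sign with upper quartile scaling. That of the CDK inhibitors, the unfolded protein response, TGF-beta and BMP genes, S100 genes and zinc finger genes off chromosome 19 did not, each being at most 0.04 in size. Among zinc finger genes of chromosome 19, 16 of 223 rose and 8 fell, and off that chromosome 15 of 241 rose and 27 fell, all lower shares than over all genes. The clustered protocadherins, cell surface proteins of neurons, fell in 8 of 45 cases (17.8%) and rose in 2 (4.44%). The share that fell was near the 13.5% over all genes, of which 12.2% rose. PCDHB13, a member whose relatives are close in sequence, had 16.3, 15.1 and 16.6 CPM with AZA against 24, 26.2 and 22.3 CPM with DMSO.

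The largest rises outside the germ line were in genes of varied function. UPK1B, an uroplakin of the bladder lining, had 41.9, 43.4 and 35.9 CPM with AZA and 2.29, 2.21 and 1.91 CPM with DMSO, an 18.9-fold rise (log2 4.24 ± 0.15 SE, adjusted p = 8.39e-11, edgeR with Benjamini-Hochberg adjustment). INPP5D, the phosphatase SHIP1 of blood cells, had 7.44, 6.83 and 6.62 CPM with AZA and 0.399, 0.411 and 0.504 CPM with DMSO. SLC1A7, a glutamate transporter, had 3.80, 3.70 and 3.64 CPM with AZA and 0.293, 0.411 and 0.424 CPM with DMSO. In these 3 genes the lowest AZA library lay several-fold above the highest DMSO library. They were named for the size of the rise among genes whose groups did not overlap, so this is no support. Groups lay apart in this direction for 21.5% of all tested genes. NNAT, an imprinted gene of the developing brain, had 1.37, 0.932 and 0.897 CPM with AZA and 0.0266, 0 and 0.0795 CPM with DMSO. It passed the filter on counts through the AZA libraries. Its fitted fold of 28.1 (95% interval 11.9 to 66.4) depends on the prior count. EVC, a protein of the primary cilium, rose 11.3-fold and PRF1, the perforin of killer cells, 8.47-fold. No DMSO library was above 0.265 CPM in these last 3 genes.

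In a list of genes with reported methylation changes in pancreatic cancer, not all of them silenced there, 10 of 42 rose and 10 fell. TFF2, LCN2, SERPINB5 and S100A4 were among those that rose, so the count is not one of silenced genes. BNC1, a transcription factor of squamous epithelium, had 4.53, 4.66 and 4.10 CPM with AZA and 0.718, 0.796 and 0.477 CPM with DMSO. UCHL1, a neuronal ubiquitin hydrolase, rose 1.60-fold and HOXA9 3.42-fold. DKK3, a secreted Wnt modulator, went the other way, with 29.5, 30.8 and 31.3 CPM with AZA against 55.7, 55.6 and 57.6 CPM with DMSO, and SFRP1, a Wnt antagonist, fell 1.76-fold. Both were well expressed in DMSO. Of 35 imprinted genes 5 rose and 7 fell. PEG10, a paternally expressed gene derived from a retrotransposon, had 987, 985 and 970 CPM with AZA against 1623, 1647 and 1555 CPM with DMSO, and SGCE, its neighbour, fell 1.43-fold.

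Sterol and fatty acid synthesis was lower nearly throughout the pathway. Of 37 genes, all tested, 28 fell and 1 rose, with a median log2 fold change of -0.53, beside 13.5% lower and a median of 0.01 over all genes. The summed level of the list was 6254 to 6480 CPM with AZA and 9638 to 10080.5 CPM with DMSO. SCD, the desaturase that makes oleate, had 1145, 1167 and 1143 CPM with AZA and 2256, 2402 and 2221 CPM with DMSO, a 1.99-fold fall (log2 -0.99 ± 0.05 SE, adjusted p = 6.35e-09, edgeR with Benjamini-Hochberg adjustment). SQLE, the squalene epoxidase, had 102, 97.9 and 94.0 CPM with AZA and 168, 162 and 155 CPM with DMSO. DHCR7, which makes the last step to cholesterol, had 153, 155 and 143 CPM with AZA and 239, 237 and 246 CPM with DMSO. The groups lay clear of each other in all 3 genes, which were named for the smallest p of the list. All AZA libraries were below all DMSO libraries for 22.1% of all tested genes.

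FASN, the fatty acid synthase, fell 1.55-fold, and INSIG1, the sterol-regulated anchor of SCAP, 1.64-fold. SREBF2, the transcription factor of the sterol genes, fell 1.43-fold, while SREBF1 had 142, 147 and 147 CPM with AZA against 140, 149 and 151 CPM with DMSO. ABCG1, a cholesterol exporter, was the member that rose, with 19, 20.2 and 20.1 CPM with AZA against 7.93, 9.24 and 9.14 CPM with DMSO. The siCTRL libraries lay further from AZA than DMSO did for SCD, at a mean of 3235 CPM, and for INSIG1, at 394 CPM.

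**Figure D3:**
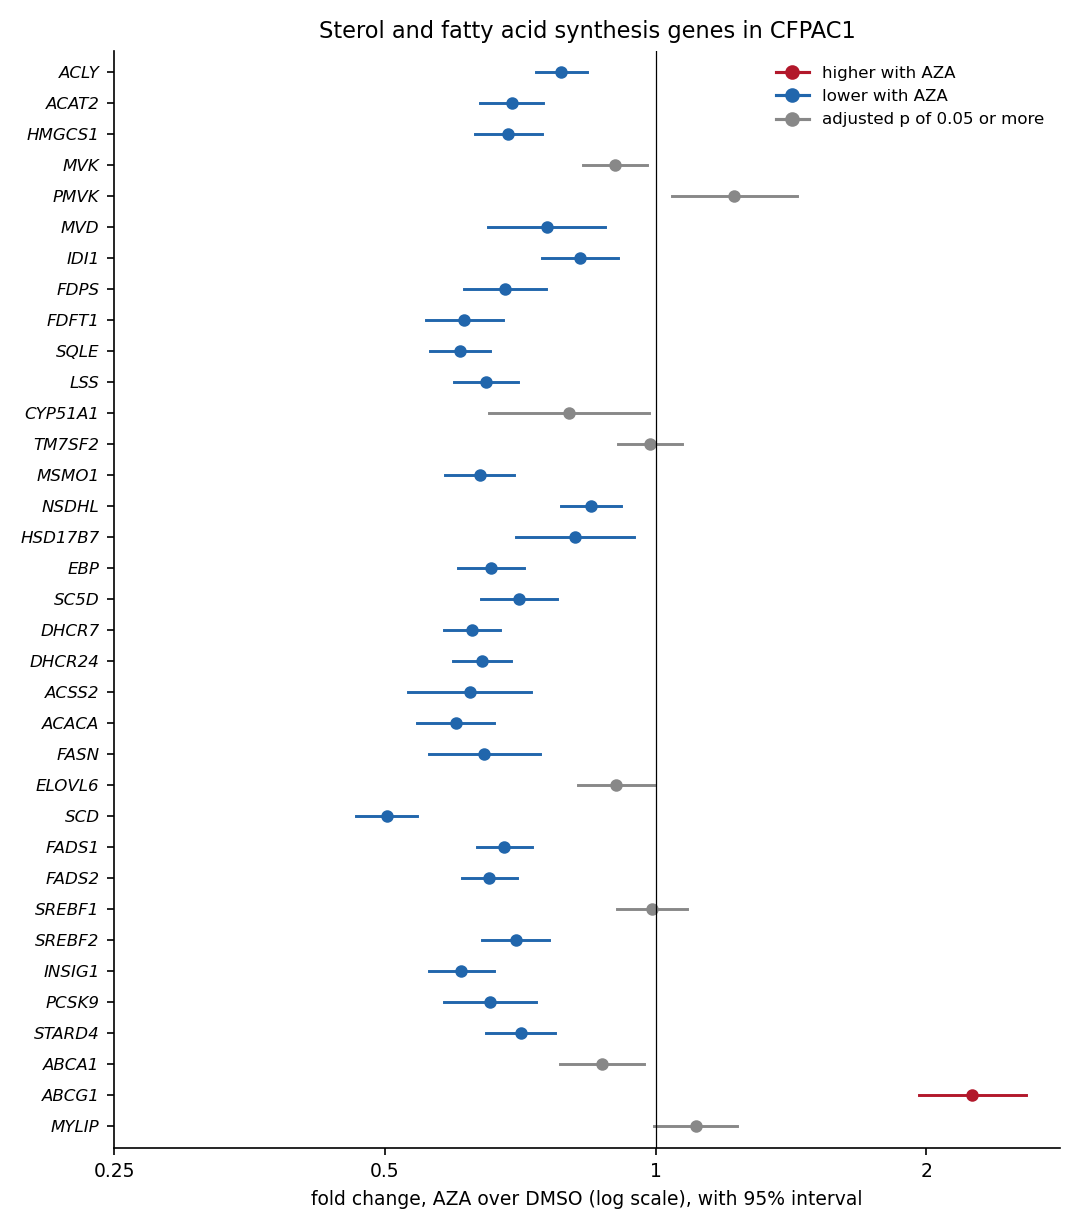
Fold change of AZA over DMSO (log scale) with its 95% interval for members of the list of 37 sterol and fatty acid genes in CFPAC1, from synthesis at the top to regulation and transport at the bottom. Blue points fell, SCD furthest at 1.99-fold, ABCG1 rose 2.25-fold, and grey points did not pass the threshold.

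Mesenchymal genes fell more often than they rose. Of 32 tested, 18 fell (56.25%) and 4 rose (12.5%), with a median log2 fold change of -0.26. Over all genes 13.5% fell and 12.2% rose, and over 100 CPM in siCTRL 33.0% fell and 8.0% rose. With upper quartile scaling 13 mesenchymal genes fell and 4 rose. LOXL2, a collagen crosslinking oxidase, had 35, 34.1 and 33.3 CPM with AZA and 63.9, 64.7 and 61.5 CPM with DMSO. AXL, a receptor tyrosine kinase, had 809, 820 and 807 CPM with AZA and 1438, 1520 and 1600 CPM with DMSO. CDH2, N-cadherin, had 103, 102 and 105 CPM with AZA and 175, 167 and 163 CPM with DMSO. In each of these genes, named for the smallest p of the list, all AZA libraries were below all DMSO libraries, as for 22.1% of all genes tested. The transcription factors SNAI2 and ZEB1 fell 1.66-fold and 1.21-fold. VIM, vimentin, did not pass the test, at 1909, 1856 and 1886 CPM with AZA against 2188, 2085 and 2103 CPM with DMSO (adjusted p = 0.201, edgeR with Benjamini-Hochberg adjustment). S100A4, NNMT and MMP2 were among those that rose.

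Epithelial junction genes also fell more often than they rose. Of 41 tested, 11 fell (26.8%) and 2, CLDN2 and CGN, rose (4.88%), beside 13.5% and 12.2% over all genes. Many of these genes are abundant, and the list summed to at least 12538 CPM in every library. Of all genes over 100 CPM in siCTRL 33.0% fell and 8.0% rose, so the balance is not particular to junction genes. CDH1, E-cadherin, had 322, 329 and 319 CPM with AZA and 513, 529 and 492 CPM with DMSO, a 1.58-fold fall. TJP1, the tight junction scaffold ZO-1, fell 1.41-fold and CDH3, P-cadherin, 1.72-fold. EPCAM had 279, 280 and 263 CPM with AZA against 297, 280 and 323 CPM with DMSO, and the groups met.

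Matrix genes changed in both directions, with 18 of 44 lower and 10 higher. TNC, tenascin C, had 60.6, 62.0 and 61.5 CPM with AZA and 119, 136 and 130 CPM with DMSO. TIMP1, an inhibitor of metalloproteinases, had 145, 143 and 146 CPM with AZA and 81.6, 81.8 and 86.4 CPM with DMSO. MMP1, a collagenase, rose 3.68-fold, while MMP7, the matrilysin of epithelial tumours, fell 1.52-fold and THBS1, thrombospondin, 1.77-fold. Of the genes chosen for the size of their fall, ABI3BP, a matrix-binding protein, fell most, with 13.5, 14.1 and 13.7 CPM with AZA and 67.3, 73.8 and 56.3 CPM with DMSO, a 4.79-fold fall (adjusted p = 9.47e-08, edgeR with Benjamini-Hochberg adjustment). COL8A1, a network collagen, fell 2.91-fold, and FRAS1, a basement membrane protein, 2.47-fold. TNFSF18, a ligand of T cell costimulation, had 1.4, 1.33 and 1.82 CPM with AZA and 7.34, 6.67 and 6.94 CPM with DMSO.

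In the list of EGFR ligands, receptors and ERK feedback, 6 of 31 genes fell (19.4%) and 3 rose (9.68%). These shares are not far from the 13.5% lower and 12.2% higher over all genes. HBEGF, a ligand of EGFR, had 43.4, 47.2 and 49.9 CPM with AZA and 109, 98.1 and 102 CPM with DMSO. FOSL1, an AP-1 subunit induced by ERK, had 230, 228 and 237 CPM with AZA and 382, 390 and 393 CPM with DMSO. TGFB2 fell 1.68-fold and FST, which binds activin, 2.84-fold, while TGFBR3, the coreceptor betaglycan, rose 1.80-fold. In the list of TGF-beta and BMP genes, 9 of 33 fell (27.3%) and 8 rose (24.2%). For some of these genes the siCTRL libraries, which received no AZA, were nearer to AZA than to DMSO. The siCTRL mean was 47.7 CPM for HBEGF, 394 CPM for CCN1 (343, 405 and 406 CPM with AZA, 795, 715 and 731 CPM with DMSO), 3.21 CPM for FAT3 (2.80 CPM with AZA and 8.67 CPM with DMSO on average) and 1.24 CPM for IL11 (0.756, 1.10 and 1.21 CPM with AZA, 3.38, 3.26 and 3.47 CPM with DMSO). The siCTRL cells were transfected and were not a control for AZA.

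Markers of the classical, gland-like subtype of pancreatic cancer rose in 10 of 25 cases and fell in 3, with a median log2 fold change of 0.26. TFF1, a trefoil peptide secreted with mucus, had 7.90, 8.23 and 7.30 CPM with AZA and 2.13, 1.57 and 1.99 CPM with DMSO. TSPAN8, a tetraspanin, rose 1.54-fold, CEACAM6 1.35-fold and KRT20, a keratin of the gut lining, 1.92-fold. MUC5B, a gel-forming mucin, had 9.59, 10.3 and 11.5 CPM with AZA and 1.73, 3.29 and 2.44 CPM with DMSO, beside a mean of 10.4 CPM in siCTRL. GATA6, the transcription factor that marks the subtype, showed no called change, at 30.8, 31.5 and 32.3 CPM with AZA against 30.1, 30.1 and 32.6 CPM with DMSO. In the mucin and trefoil list 5 of 12 rose and 1 fell.

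Basal-like markers split, with 8 of 28 higher and 7 lower. KRT6A, a stress keratin, had 4.44, 3.84 and 4.56 CPM with AZA and 0.878, 0.924 and 1.33 CPM with DMSO. FGFBP1, a carrier of fibroblast growth factors, had 47.9, 50.5 and 47.0 CPM with AZA and 125, 111 and 135 CPM with DMSO, and KRT7, the duct keratin, fell 1.31-fold. Among squamous genes 5 of 19 rose and 5 fell. KRT81, a hair keratin, had 108, 122 and 119 CPM with AZA and 40.0, 40.2 and 40.3 CPM with DMSO, and KRT13 rose 4.39-fold. S100P, a calcium-binding protein that is high in pancreatic cancer, had 25.9, 31.2 and 28.2 CPM with AZA and 3.75, 3.52 and 4.58 CPM with DMSO, beside 10.6 CPM in siCTRL. Of 26 foregut and ductal transcription factors 3 rose and 5 fell. SPDEF, a factor of secretory cells, rose 1.53-fold. Of 15 tested neuroendocrine and neural genes, UCHL1, CHGB and SYP rose, the call of CHGB being lost without DMSO replicate 1 (adjusted p = 0.0530, edgeR) and that of SYP without DMSO replicate 1 or AZA replicate 3 (0.0657 and 0.0746).

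**Figure D4:**
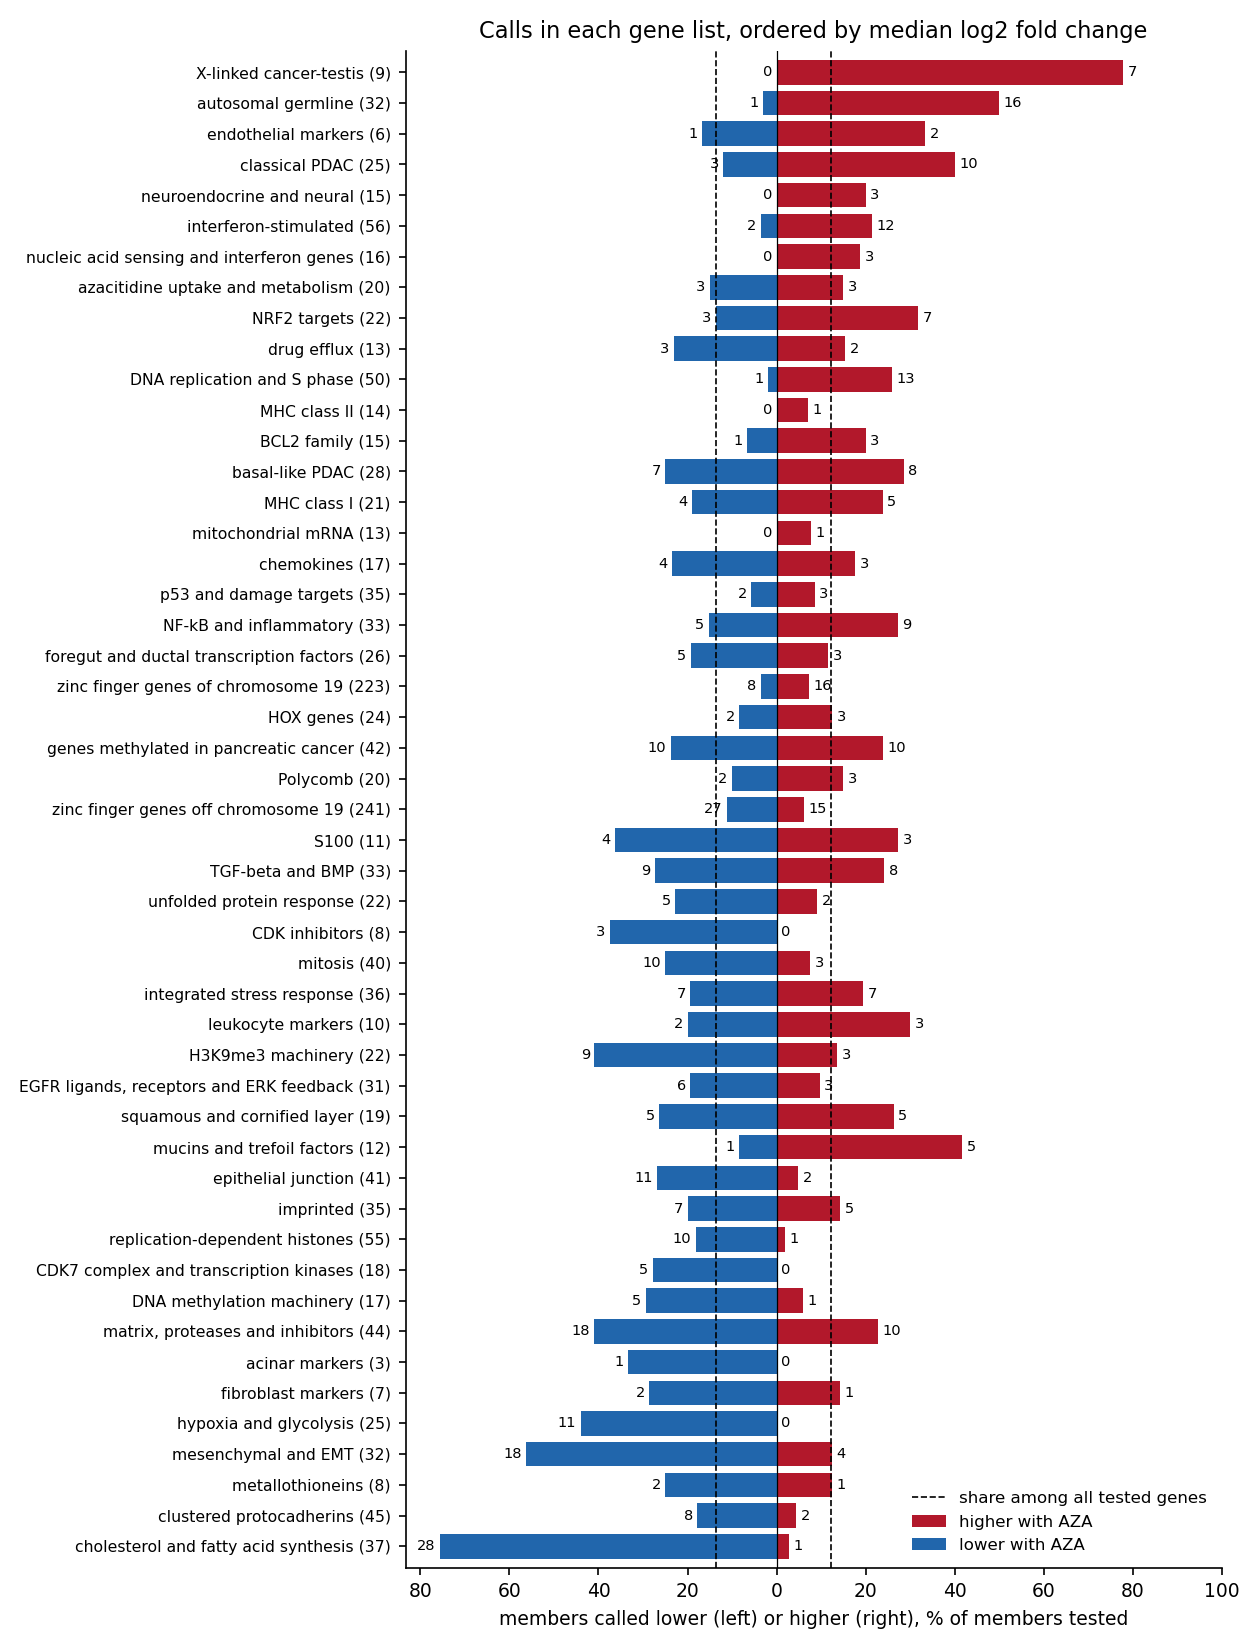
Share of tested members of each of 49 gene lists that rose (right) or fell (left) with AZA, with the number of genes beside each bar and the number tested after each name. Dashed lines mark 12.2% and 13.5%, the shares over all genes. Germline lists, some of whose members passed the filter on counts through the AZA libraries, lie at the top. The sterol list, with 28 of 37 lower, lies at the bottom.

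Interferon-stimulated genes rose in 12 of 56 cases and fell in 2, with a median log2 fold change of 0.12. The changes were small at the expressed members. IFI35 had 42.8, 44.1 and 39.9 CPM with AZA against 31.3, 36.2 and 34.1 CPM with DMSO. GBP5, a guanylate-binding protein, rose 4.44-fold at a low level, 0.672 CPM with AZA and 0.150 CPM with DMSO on average. IRF7, IDO1, BST2 and CMPK2 were among the others that rose. In the siCTRL libraries IRF7 averaged 44.7 CPM and UBE2L6 133 CPM, above all 6 AZA and DMSO libraries. Of 16 tested genes of nucleic acid sensing, STING1, IRF3 and DHX58 rose, by 1.24-fold, 1.21-fold and 1.26-fold. None fell in edgeR or DESeq2, and 1 was lower at an unadjusted p under 0.05. The call of DHX58 was lost without AZA replicate 2, AZA replicate 3 or DMSO replicate 1, with an adjusted p of up to 0.112 in edgeR.

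In MHC class I presentation 5 of 21 genes rose and 4 fell. NLRC5, which switches on the class I genes, had 24.5, 25.7 and 25.4 CPM with AZA and 18.9, 17.7 and 18.3 CPM with DMSO. The chaperones PDIA3 and CALR fell 1.21-fold and 1.25-fold. CIITA, the class II activator, rose 1.36-fold and was the 1 class II gene of 14 that was called. Among NF-kB and inflammatory genes 9 of 33 rose and 5 fell. ICAM1, an adhesion molecule for leukocytes, had 46.4, 47.3 and 48.8 CPM with AZA and 25.4, 25.2 and 26.9 CPM with DMSO, and PTGS2, cyclooxygenase 2, rose 2.19-fold. CXCL8, a neutrophil chemokine, fell 1.52-fold and CXCL14, a mucosal chemokine, 3.20-fold.

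Iron storage and redox genes were among the abundant genes that rose. FTL, ferritin light chain, had 2077, 1883 and 1968 CPM with AZA and 1046, 1042 and 1198 CPM with DMSO. FTH1, the heavy chain, had 2513, 2324 and 2368 CPM with AZA and 1373, 1401 and 1645 CPM with DMSO. Ferritin has many pseudogenes, which may share reads. NQO1, a quinone reductase, had 548, 528 and 488 CPM with AZA and 333, 313 and 362 CPM with DMSO. In all 3 genes, named for the smallest p of the NRF2 list, every AZA library was above every DMSO library, as for 21.5% of all genes tested. Of 22 NRF2 target genes 7 rose and 3 fell. GPX2, a glutathione peroxidase of the gut, rose 1.74-fold to a mean of 398 CPM with AZA, against 229 CPM with DMSO, and averaged 407 CPM in siCTRL. SHISA2, a regulator of Wnt and FGF receptor maturation, and TCN1, which binds vitamin B12, rose 1.85-fold and 1.70-fold.

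Cell cycle genes shifted by little. Of 50 genes of DNA replication and S phase 13 rose (26%) and 1 fell (2%), and of 40 mitotic genes 3 rose (7.5%) and 10 fell (25%). Over all genes 12.2% rose and 13.5% fell. The mitotic list summed to at least 7171 CPM with DMSO. Genes over 100 CPM in siCTRL fell in 33.0% and rose in 8.0% of cases. CCNE2, cyclin E2, had 22.0, 22.9 and 22.6 CPM with AZA and 18.6, 15.7 and 17.5 CPM with DMSO. CENPE, a kinetochore motor, had 88.3, 86.4 and 86.6 CPM with AZA and 107, 103 and 102 CPM with DMSO. With upper quartile scaling the counts were 19 higher and 0 lower for S phase, and 5 higher and 7 lower for mitosis. Replication-dependent histone genes, whose copies are near-identical, fell in 10 of 55 cases and rose in 1. CDKN1A, the p53-induced inhibitor p21, had 72.0, 77.6 and 75.9 CPM with AZA and 71.8, 74.1 and 77.9 CPM with DMSO, with no called change (log2 0.01 ± 0.11 SE, adjusted p = 0.955, edgeR with Benjamini-Hochberg adjustment). Of 35 p53 and damage targets 3 rose and 2 fell. CDKN2A and CDKN2B, inhibitors of CDK4 and CDK6, fell 1.34-fold and 1.24-fold.

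Stress and metabolic lists were mixed or lower. ATF4, the transcription factor of the integrated stress response, had 163, 165 and 159 CPM with AZA and 251, 223 and 231 CPM with DMSO, while GDF15, a stress hormone, rose 1.58-fold. That list had 7 of 36 higher and 7 lower. HSP90B1 and PDIA4, chaperones of the endoplasmic reticulum, fell 1.31-fold and 1.26-fold, and 5 of 22 genes of the unfolded protein response fell while 2 rose. Of 25 hypoxia and glycolysis genes 11 fell and none rose in edgeR or DESeq2, with 1 higher at an unadjusted p under 0.05. ALDOA, aldolase, had 22.3, 20.2 and 22.0 CPM with AZA and 41.2, 39.9 and 30.5 CPM with DMSO, and PDK1 fell 1.35-fold. ABCB1, the drug efflux pump P-glycoprotein, had 32.4, 32.8 and 29.1 CPM with AZA and 67.2, 63.8 and 70.0 CPM with DMSO. In the CDK7 complex and transcription kinase list, which bears on the drug class named in the series title, 5 of 18 fell (27.8%). None rose in edgeR, against 1 in DESeq2 and 1 at an unadjusted p under 0.05. Over all genes 13.5% fell, and of those over 100 CPM in siCTRL 33.0%. The call of CCNC, 1 of the 5, was lost under 4 alternatives. MNAT1 and CCNH, the partners of CDK7, fell 1.41-fold and 1.33-fold.

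Lists of other cell types moved in both directions. The endothelial list summed to 33.5 to 34.4 CPM with AZA and to 30.0 to 30.8 CPM with DMSO, with 2 of 6 tested members higher and 1, ESAM, lower, a call lost under 6 alternatives, and ERG was at 0. PECAM1, an adhesion molecule of endothelium, had 4.79, 4.64 and 4.68 CPM with AZA and 0.905, 0.873 and 0.795 CPM with DMSO. The leukocyte list summed to 104 to 116 CPM with AZA and to 104 to 113 CPM with DMSO, with 3 of 10 higher and 2 lower, and MS4A1 and FCGR3A were at 0. CD14, a monocyte receptor, rose 2.63-fold and LAPTM5, a lysosomal protein of blood cells, 1.88-fold. The fibroblast list summed to 104 to 108 CPM with AZA and to 158 to 170 CPM with DMSO, with 1 of 7 higher and 2 lower and PDPN at 0, and COL1A1 fell 1.60-fold, while the fall of ACTA2 was lost under 10 alternatives. The acinar list summed to 5.1 to 6.3 CPM with AZA and to 6.5 to 7.6 CPM with DMSO, with PNLIP and GP2 at 0. The part of other cells in any gene above was not tested.

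The effect of AZA in CFPAC1 was compared with that in ASPC1 in a fit of 24 libraries, in which all levels and folds of this comparison are given. The effect differed at an adjusted p under 0.05 for 3306 of 19094 genes (17.3%), 1654 more positive in CFPAC1 (8.66%) and 1652 more negative (8.65%). Of 2290 genes called in both lines, 879 were higher in both and 857 lower in both, while 259 were higher in CFPAC1 and lower in ASPC1 and 295 lower in CFPAC1 and higher in ASPC1. Over 19088 genes the log2 fold changes of the lines had a Pearson r of 0.24 and a Spearman rho of 0.24, a description across genes, which are not independent.

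Mesenchymal genes separated the lines. In CFPAC1 17 of 32 fell and 4 rose, in ASPC1 2 fell and 14 rose, and for 17 the difference was more negative in CFPAC1 and for 1 more positive. AXL fell in CFPAC1 by 0.89 on the log2 scale and had a log2 fold change of 0.17 in ASPC1, a difference of -1.06 ± 0.10 SE (adjusted p = 1.04e-08, edgeR with Benjamini-Hochberg adjustment). SNAI2 and LOXL2 fell in CFPAC1 and rose in ASPC1, with differences of -1.10 and -1.51. Epithelial junction genes fell in 12 of 41 cases in CFPAC1 and in 31 in ASPC1, and 25 differed toward a more positive change in CFPAC1. EPCAM had a log2 fold change of -0.12 in CFPAC1 and -0.78 in ASPC1, a difference of 0.66 ± 0.07 SE. CDH1 fell in both lines, by 0.65 in CFPAC1 and by 1.24 in ASPC1 on the log2 scale, and this difference too passed the test (0.59, adjusted p = 4.59e-05, edgeR with Benjamini-Hochberg adjustment).

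Sterol and fatty acid genes fell in both lines, 27 of 37 in CFPAC1 and 34 in ASPC1, and 25 differed toward the smaller fall in CFPAC1. SCD fell by 0.98 in CFPAC1 and by 1.81 in ASPC1 on the log2 scale. Classical subtype markers rose in 13 of 30 cases in CFPAC1 and in 3 in ASPC1, and fell in 4 in CFPAC1 and in 17 in ASPC1. TSPAN8 had a log2 fold change of 0.63 in CFPAC1 and -1.43 in ASPC1. Of 21 MHC class I genes, 8 differed, each more positive in CFPAC1. Among S phase genes 2 of 50 differed. DAZL, TDRD1 and MAEL rose in both lines, while RGS1 had no count in any ASPC1 library. SPANXB1 had 2.60, 3.60 and 3.68 CPM with AZA in CFPAC1 and, in ASPC1, 1 AZA library at 0.0271 CPM and the other 5 AZA and DMSO libraries at 0.

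**Figure D5:**
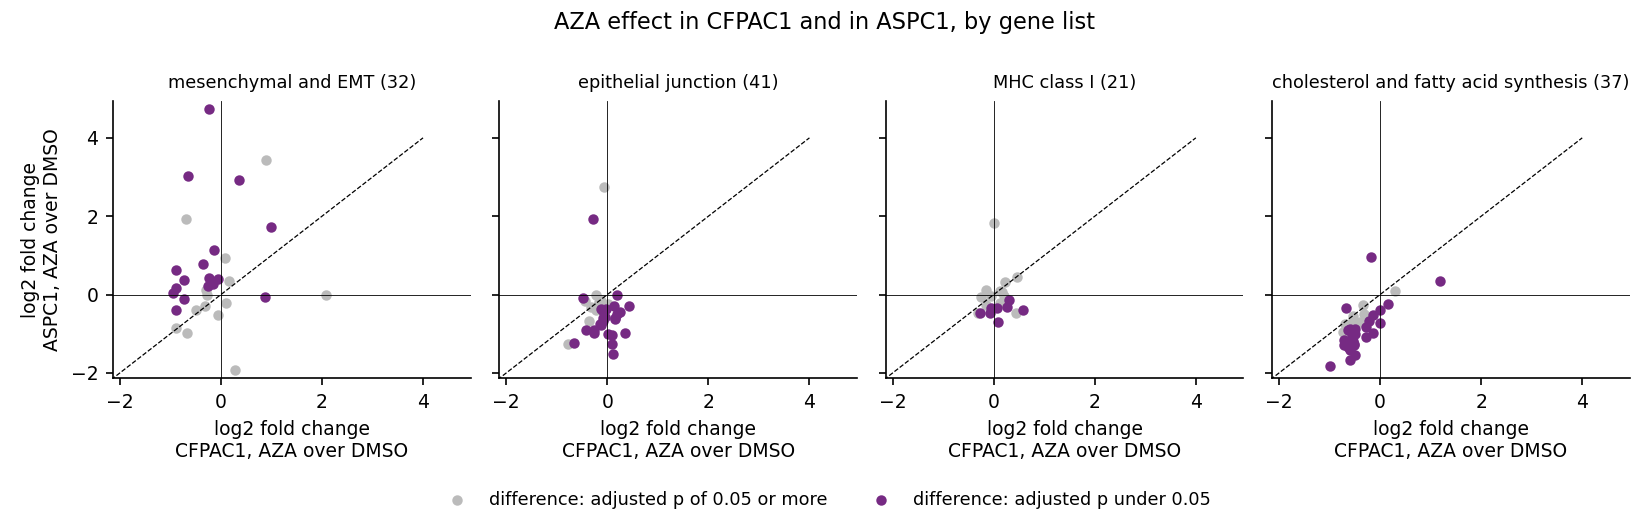
Log2 fold change of AZA over DMSO in CFPAC1 (horizontal) and ASPC1 (vertical) for the members of 4 gene lists, with the number tested in each title. Purple points differ between the lines at an adjusted p under 0.05, and points above the dashed line of equal change are more negative in CFPAC1, as 17 of 32 mesenchymal genes are.

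Knockdown of ZNF274 in CFPAC1, measured against siCTRL in libraries that AZA and DMSO do not share, left 2099 genes higher (11.6%) and 2384 lower (13.2%). Of the genes higher with AZA, 434 were also higher with siZNF274 (19.7% of the AZA list and 20.7% of the siZNF274 list) and 249 were lower (11.3% and 10.4%). Of those lower with AZA, 568 were also lower with siZNF274 (23.2% and 23.8%) and 333 were higher (13.6% and 15.9%). Across genes the changes had a Pearson r of 0.11. Over 3 libraries each, SPANXB1 had 3 counts with siZNF274 and 5 with siCTRL, RGS1 had 12 with siZNF274 and 2 with siCTRL, TDRD1 had 1 in each group and DAZL had none in either. The sterol gene SCD averaged 3867 CPM with siZNF274 and 3235 CPM with siCTRL.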

How the data were processed

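RNA was sequenced from CFPAC1 and ASPC1 cells, from 500 ng of total RNA with a stranded, ribosomal RNA-depleted Illumina kit, per the labels' protocols. FastQC, STAR 2.7.10b and the genome hg38 were named, per the submitters' processing notes. The authors deposited raw counts per gene, a whole number for each library, and the sources used here do not give the strand setting of the counting. Of 36843 gene identifiers 36717 matched the table of symbols. From the deposited counts, genes were filtered with filterByExpr, scaled by the trimmed mean of M-values and tested with edgeR 4.0.16 (quasi-likelihood test) in R 4.3.3, over the 12 CFPAC1 libraries, for AZA minus DMSO without a replicate term. A fit of 24 libraries of both lines tested the difference between lines. Calls are Benjamini-Hochberg adjusted p-values under 0.05, and errors of fold changes are standard errors (SE). CPM values were computed here from the counts, per 1000000 with the same scaling. They are not corrected for gene length, so levels are compared within a gene only.

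Genes were named by these rules. By size, the 12 largest rises and falls among called protein-coding genes whose groups did not overlap and whose higher group averaged at least 1 CPM. By silence, the 8 protein-coding and 2 long non-coding genes with at most 3 counts over DMSO, at least 10 in each AZA library and the most counts with AZA. In each list, the 3 members with the smallest p. Between lines, the 8 called in both with opposite signs that differed most, and the 5 largest differences in each direction. By level, the 5 largest rises and falls among genes of at least 200 CPM. Other list members are examples picked with their values in view. The members, lists and tests were chosen with earlier results of these data known.

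Promoters are from RefSeq. Promoter CG counts of the genes at least 2-fold higher are not given, because fewer than 80% of them had an entry. Alternatives were DESeq2 1.42.0, other scalings, no filter, a replicate block, only the 6 libraries and each library left out; those leaving out ASPC1 libraries were added after seeing the data. The tests were checked on simulated counts. Some genes are not reported here, though the list counts include them.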

Additional observations from a re-analysis of the deposited data

Results flagged for a closer look

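For 29 of the named genes the effect of AZA differed between CFPAC1 and ASPC1 by at least 2 on the log2 scale at an adjusted p under 0.05 (edgeR, with Benjamini-Hochberg adjustment). Differences are CFPAC1 minus ASPC1. Where a gene had next to no counts in a group of either line, the fitted value depends on the prior count and is not a bound.

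Genes of epithelial and secretory identity were among them. KRT7 differed by -2.79, with 591, 609 and 585 CPM with AZA and 774, 754 and 796 CPM with DMSO in CFPAC1, and with 14.3, 15.5 and 14.5 CPM with AZA and 2.46, 2.90 and 2.96 CPM with DMSO in ASPC1. GPX2 differed by 2.51, with 393, 391 and 371 CPM with AZA and 249, 214 and 194 CPM with DMSO in CFPAC1, and with 7.18, 5.90 and 6.11 CPM with AZA and 22.0, 23.4 and 16.8 CPM with DMSO in ASPC1. MUC5B differed by 3.05 and TSPAN8 by 2.07, each higher with AZA in CFPAC1 and lower in ASPC1. CPED1 differed by -3.72, with 1.98, 2.76 and 2.74 CPM with AZA and 7.47, 7.80 and 6.12 CPM with DMSO in CFPAC1, and with 1.94, 2.27 and 1.45 CPM with AZA and 0.529, 0.410 and 0.276 CPM with DMSO in ASPC1.

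More positive in CFPAC1 were also INPP5D (3.11), SLC1A7 (2.39), NLRP2 (7.06), CCL26 (4.13), WNT5B (7.15), EMX1 (5.34), C11orf86 (4.77), NR0B2 (4.37) and KIT (3.90). INPP5D rose in both lines. More negative in CFPAC1 were IL11 (-2.06), UCHL1 (-4.85), LAPTM5 (-3.85), MT2A (-2.36), TFPI2 (-7.24), PKIA (-5.92), ADAMTS1 (-5.21), FOXC2 (-4.98), BMP6 (-4.64), RAB3B (-4.32), DUSP5 (-4.21), PHGDH (-8.03), SALL1 (-7.60), TSPAN18 (-6.98) and BTBD6 (-6.62). CCL26, the genes from WNT5B on in its list and those from TFPI2 on in the other were named for the size of the difference. Their values are descriptions. INPP5D, SLC1A7, IL11, CPED1, GPX2 and NLRP2 were named for their change in CFPAC1, which enters the difference, so their values are descriptions too.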

How the results depend on the processing

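No named gene with a called change changed sign under any alternative run, while 5 of 49 list medians changed sign with upper quartile scaling, which also turned the balance of calls to 2940 higher and 1914 lower, as did leaving out DMSO replicate 3 (2458 and 2424). The genes called higher numbered 1462 to 2458 and those lower 1710 to 2424 when each CFPAC1 library was left out, 1462 being the value without AZA replicate 2. At least 2-fold higher were 320 to 395 genes and lower 101 to 170. Genes silent in siCTRL that were called higher numbered 26, against 28 to 40 with a library left out, 40 being the value without DMSO replicate 1. They numbered 9 with a sum of 0 allowed over siCTRL, 48 with a sum of at most 10, and 102 without the filter on low counts, where more genes are tested. More positive in CFPAC1 than in ASPC1 were 1297 to 1496 genes and more negative 1388 to 1708 with a library left out. DESeq2 gave 2216 higher and 2538 lower, and the 6 libraries alone 2663 and 2809. Replicate numbers did not pair the samples, as same-numbered libraries correlated at -0.01, -0.08 and -0.12 in their deviations, and a replicate block gave 2315 higher and 2560 lower. For the named genes, counted once per alternative, 2103 values in CFPAC1 kept their side of the threshold, 73 lost the call and 7 gained one, and between the lines 268 kept it and 20 lost it. Besides the genes given above, CLVS1, BAD, BCL2L11, BHLHA15, CBX8, EED, KDM6B, CDKN3, CORO1A and MT-ND6 lost the call under at least 1 alternative. The cause was not tested. Depth limits the silent genes, where 3 counts over a group is the floor.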

Other observations

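Gene groups outside the comparisons above moved by little or in both directions. Of 8 tested metallothionein and zinc homeostasis genes, MT1E and MT2A, which bind metal ions, fell 1.75-fold and 1.24-fold and the zinc exporter SLC30A1 rose. In the BCL2 family, which governs cell death, 3 of 15 rose, BCL2L11, BAD and BCL2L10, and BCL2L1 fell. Of 20 Polycomb genes 3 rose (15%) and 2 fell (10%), near the 12.2% and 13.5% over all genes. Among 24 HOX genes, HOXA9, HOXA11 and HOXA13 rose (12.5%) and HOXB9 and HOXB3 fell (8.33%), also near those shares. In the S100 family 3 of 11 rose and 4 fell. Of 13 mitochondrially encoded messenger RNAs MT-ND6 rose and none fell in edgeR, in DESeq2, which called none in either direction, or at an unadjusted p under 0.05. The call of MT-ND6 was lost under 6 alternatives.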
